A study of Mus musculus with 208 samples.

Results

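The transcriptional response to lipopolysaccharide (LPS) in striatal neurons of mice that never received morphine was examined by comparing 15 SAL-LPS with 13 SAL-SAL RNA-seq libraries of NeuN+ nuclei. These 28 libraries are all those with either label among 54 striatal libraries, in a series of 208 libraries. The rule also removed any library whose total count was under 0.5 of the striatal median (5424961.75 counts), and it removed none. All animals were C57BL/6NTac mice. Both groups had the same early history: dams carried osmotic minipumps delivering saline during gestation, and the pups were raised by surrogate dams and received subcutaneous saline on each day from postnatal day 1 to 14. As adults, SAL-LPS animals received an intraperitoneal injection of LPS and SAL-SAL animals an injection of saline, and the striatum was dissected 2 h later. About 5000 nuclei positive for NeuN, a neuronal nuclear protein, were sorted for each library, and each library was made from 1 animal. The SAL-SAL group held 6 females and 7 males and the SAL-LPS group 9 females and 6 males. The question was which neuronal nuclear transcripts differ 2 h after a peripheral immune challenge when there was no perinatal morphine.

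LPS is a component of the outer membrane of Gram-negative bacteria and is sensed mainly through TLR4 on immune and vascular cells. After a peripheral injection, circulating cytokines and adrenal glucocorticoids reach the brain, where glucocorticoids act on neurons through the glucocorticoid receptor, a transcription factor that the chaperone Hsp90 holds ready to bind hormone. Most striatal neurons are GABAergic medium spiny neurons, which carry either the dopamine receptor Drd1 or the receptors Drd2 and Adora2a. Neurons also make and take up cholesterol, and the genes for this are driven by the transcription factor encoded by Srebf2, which is released when membrane sterol is low.

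Before any comparison, the libraries were checked against their labels. Total counts ran from 6467848 to 76678084 (median 11535958). Uty, a gene of the Y chromosome, lay between 56.4 and 183 CPM (counts scaled to a common library total) in the 13 libraries from males and at or below 3.9 CPM in the 15 from females, so no library went against its labelled sex by this gene. Xist, the usual female marker, was listed at 0 in all 28 libraries and could not serve as a check. The neuronal gene Rbfox3, which encodes NeuN itself, was abundant in every library, at 293 to 3000 normalized CPM (counts scaled to a library size corrected by the TMM method). The labelled tissue did not hold equally well. The mean log2(normalized CPM + 1) over 32 genes of medium spiny neuron identity was under 5 in 4 libraries, SAL-SAL 3-2 and 3-4 and SAL-LPS 1-2 and 3-3, named by their replicate labels. In these 4, Drd1 stood at 6.13, 2.16, 0.521 and 2.5 normalized CPM, against 9.64 to 273 (median 67.2) in the other 24. Adora2a stood at 0.118, 0.651, 0.174 and 6.81 normalized CPM, against 10.4 to 372. The cortical glutamatergic genes Slc17a7 and Neurod2 were at 72.4 and 15.1 in SAL-SAL 3-2 and at 109 and 21.6 in SAL-SAL 3-4, and at or below 20.3 and 3.73 normalized CPM in the other libraries. These libraries were therefore poor in the defining transcripts of the labelled tissue, and results are given with and without them. Fits without them left out every striatal library with such a mean under 5, which was 6 of 54, the others from mice exposed to morphine. Mitochondrially encoded transcripts made up 2.57% of the counts of SAL-SAL 4-3 and 2.09% of those of SAL-SAL 5-3, and at most 0.463% in every other library, so that pair was also left out in turn. In sorted nuclei from tissue, fewer cells of a type and less RNA per cell cannot be told apart. No batch or collection date was given in the sources used here, and p-values measure the spread between these animals. The paper states that several mice of a litter were each taken as a sample, so the main fit treats littermates as independent.

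Few genes passed correction across the transcriptome. Of 23426 genes tested with edgeR, 3 were called at an adjusted p under 0.05, which is 0.0128%: Lcn2 and Msr1 rose (0.00854%) and Atp12a fell (0.00427%), and each had a mean below 1 normalized CPM. An unadjusted p under 0.05 was reached by 2743 genes (11.7%), 1376 of them higher after LPS (5.87%) and 1367 lower (5.84%). On simulated counts with known changes, this fit made more false calls than its threshold allows, nearly all of them in genes below 1 CPM. The simulation scored adjusted p only, so its bearing on the unadjusted counts was not tested. The same fit after edgeR's filterByExpr, a stricter filter on low counts, kept false calls close to the threshold, so its calls are given beside the others. Of 15814 genes left by that filter it called Lcn2 and Msr1 (0.0126%, edgeR adjusted p = 0.00466 and 0.0296), left Atp12a untested, and gave 1403 genes at an unadjusted p under 0.05 (8.87%), 790 higher (5%) and 613 lower (3.88%). DESeq2 on the same libraries called 26 of 17492 genes (0.149%), 16 higher (0.0915%) and 10 lower (0.0572%). The median log2 fold change (log2FC, SAL-LPS over SAL-SAL) of all genes tested was 0.00591. Among the 14055 genes with a mean of at least 1 normalized CPM, none had groups that did not overlap, in either direction (0%). No gene was called by edgeR without the libraries low in medium spiny neuron genes (2090 at an unadjusted p under 0.05, or 9.08%, with 10 called by DESeq2). When the medium spiny neuron score was instead entered as a covariate with all libraries kept, edgeR called 8 genes, 3 higher and 5 lower, and DESeq2 109, 60 higher and 49 lower.

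**Figure D1:**
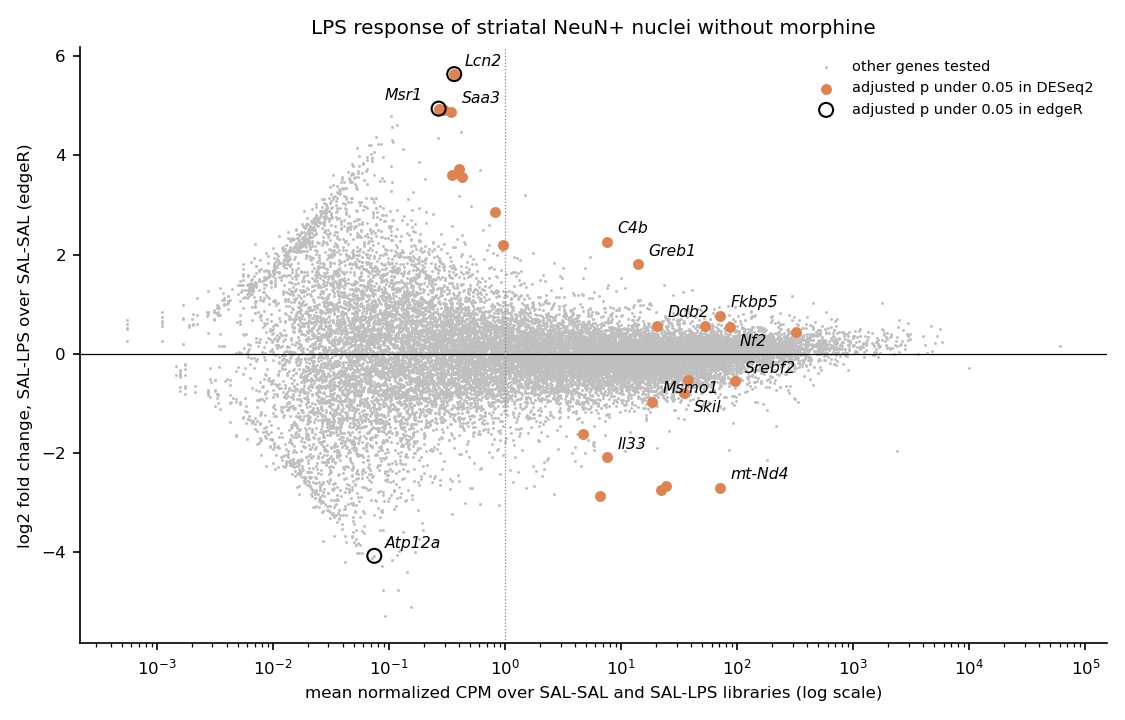
Each point is a gene tested, with its mean normalized CPM over the 28 libraries on a log axis and its edgeR log2FC, SAL-LPS over SAL-SAL, on the vertical axis. Filled points are the 26 genes called by DESeq2 and open circles the 3 called by edgeR, and the dotted line marks 1 normalized CPM, to the left of which all 3 circles lie.

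The 2 genes that edgeR called higher, Lcn2 and Msr1, were almost absent from striatal nuclei of control animals, as was Saa3, which DESeq2 called and edgeR did not. Lcn2 encodes lipocalin-2, a secreted iron-siderophore binding protein of the acute phase response. A single Lcn2 read was counted over the 13 SAL-SAL libraries (SAL-SAL 1-3, 0.0443 normalized CPM), and 138 reads were counted over the SAL-LPS libraries, in 11 of 15, with a median of 0.782 and a highest value of 1.905 normalized CPM. All 11 SAL-LPS libraries with a read exceeded every SAL-SAL library, and the other 4 were at 0. The ratio of pooled counts per total was 108, with an exact 95% interval of 19 to 4290 that covers counting error only (edgeR adjusted p = 0.00553, DESeq2 adjusted p = 0.000231). Lcn2 stayed called by edgeR when each of the 28 libraries was left out in turn (adjusted p 0.00224 to 0.0391). The call was lost when all libraries whose replicate name starts with 1, 3, 5, 9 or 10 were left out (adjusted p up to 0.131), and in each sex alone. It lay just outside the threshold without the libraries low in medium spiny neuron genes (edgeR adjusted p = 0.0502, DESeq2 adjusted p = 0.00112). Saa3 encodes a serum amyloid A protein, an acute phase apolipoprotein. It had 2 reads in SAL-SAL, both in SAL-SAL 1-3, and 131 in SAL-LPS, spread over 11 of 15 libraries up to 3.069 normalized CPM. Its pooled ratio was 51.2 (interval 13.9 to 427), with an edgeR adjusted p of 0.0726 and a DESeq2 adjusted p of 0.0169. The DESeq2 call of Saa3 was lost without SAL-SAL 4-3 and 5-3 and without the libraries low in medium spiny neuron genes (adjusted p = 0.0561 and 0.085). SAL-SAL 1-3 was thus the one control library with a trace of both acute phase transcripts.

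Msr1 encodes the macrophage scavenger receptor. It had 1 read over the SAL-SAL libraries and 90 over the SAL-LPS libraries, where it was detected in 13 of 15, with a median of 0.344 and a highest value of 2.367 normalized CPM in SAL-LPS 10-4. The pooled ratio was 70.3 (interval 12.3 to 2810, edgeR adjusted p = 0.0222, DESeq2 adjusted p = 0.00165). The edgeR call was lost when any 1 of 10 libraries was left out (SAL-SAL 1-3, 10-1, 10-3, 11-1, 3-4, 4-3, 9-0, 9-2 and 9-4, and SAL-LPS 10-4), with adjusted p up to 0.0848. SAL-LPS 10-4 was the shallowest library and gave 21.2% of its counts to a single ribosomal-type gene, the highest such share. It was also the highest SAL-LPS library for the summed microglial, oligodendrocyte and astrocyte genes (134.3, 1567 and 635 normalized CPM), and the part of those cells in its values was not tested. Of the 12 microglial genes with a mean of at least 1 normalized CPM, the summed level ran from 13.9 to 157 normalized CPM in SAL-SAL and from 16.7 to 134 in SAL-LPS. The groups therefore overlapped over nearly the whole range of microglial transcripts, and the part of such transcripts in the Msr1 reads was not tested. Of all 17 microglial genes tested, 1 (Mrc1) was higher and 1 (Siglech) lower at an unadjusted p under 0.05, with a median log2FC of −0.445.

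C4b encodes complement component C4, which tags surfaces for phagocytosis and is made by neurons as well as glia. Its level was 2.38 ± 2.32 normalized CPM (SD, n = 13) in SAL-SAL, from 0.236 to 8.09 with a median of 1.68, and 12.1 ± 10.5 (n = 15) in SAL-LPS, from 5.05 to 47.7 with a median of 8.8. Every SAL-LPS library lay above the SAL-SAL median and 9 of 15 lay above every SAL-SAL library, while SAL-SAL 4-3 and 9-4 were the only controls to reach the SAL-LPS range. The log2FC was 2.26 (SE 0.50), with an edgeR adjusted p of 0.0706 and a DESeq2 adjusted p of 0.0051. It was 2.33 without SAL-SAL 4-3 and 5-3 and 2.03 without the libraries low in medium spiny neuron genes (DESeq2 adjusted p = 0.0212 and 0.0912). It was 2.04 without its highest library, SAL-LPS 10-4. C4b has a close copy, C4a, so reads could have been split between them. The other genes of less than about 1 normalized CPM that DESeq2 called higher were Cd244 and Lilrb4a, receptors of leukocytes, Aspg, an asparaginase, Matn1, a matrilin of cartilage matrix, Slc19a3, a thiamine transporter, and the processed pseudogene Gm15455. Their DESeq2 adjusted p ran from 0.0051 to 0.0374, and their edgeR adjusted p from 0.0706 to 0.117. Gm15455 alone of these 6 kept its DESeq2 call without SAL-SAL 4-3 and 5-3 (adjusted p = 0.0033) and without the libraries low in medium spiny neuron genes (0.0401), whereas the others ran from 0.0582 to 0.152 and from 0.0764 to 0.341. Matn1 had 2 reads in SAL-SAL and 90 in SAL-LPS, with a pooled ratio of 35.2 (interval 9.46 to 295).

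**Figure D2:**
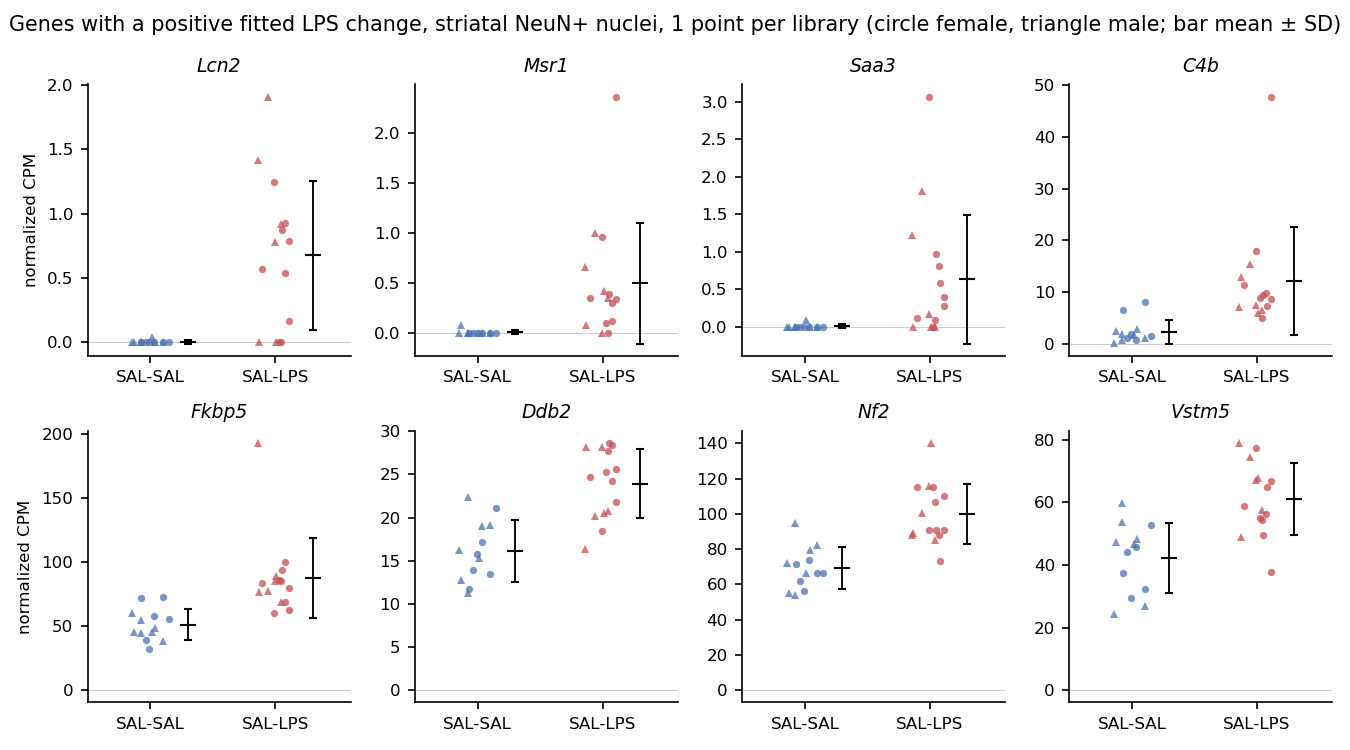
Normalized CPM of 8 genes with a positive log2FC, 1 point per library, with circles for females, triangles for males and the bar and whiskers giving the mean ± SD of each group. Lcn2, Msr1 and Saa3 were at or near 0 in SAL-SAL and spread upward in SAL-LPS, whereas Fkbp5, Ddb2, Nf2 and Vstm5 were expressed in every library and shifted between groups that overlapped.

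Apart from these transcripts, few members of the classical inflammatory lists differed. Each list is described by its counts beside the 5.87% of all genes higher and 5.84% lower at an unadjusted p under 0.05. Of 38 NF-kB and acute inflammatory genes tested, 4 were higher (Lcn2, Saa3, Nos2 and Nfkb1) and 3 lower (Relb, Ccl3 and Il6), and Lcn2 alone was called by edgeR. The median log2FC was −0.12, and its sign turned without SAL-SAL 4-3 and 5-3 (0.0317) and after filterByExpr (0.124). Nfkb1, the subunit precursor of NF-kB, was at 76.5 ± 14.9 normalized CPM in SAL-SAL and 90.8 ± 19.9 in SAL-LPS (log2FC 0.24, SE 0.12, edgeR adjusted p = 0.413). Relb, a partner subunit, was at 3.46 ± 1.14 and 1.85 ± 0.85 (log2FC −0.89, SE 0.26, edgeR adjusted p = 0.128). Nfkbia, the feedback inhibitor that NF-kB induces, was at 9.38 ± 5.9 and 8.04 ± 5.78 (log2FC −0.23, SE 0.45). The chemokine Cx3cl1, the most abundant gene of the list, stood at 338 ± 256 and 248 ± 126 (log2FC −0.35, SE 0.26). The cytokines themselves were at the edge of detection: Il1b was detected in 5 of 13 SAL-SAL and 4 of 15 SAL-LPS libraries, Tnf in 3 and 5, and Il6 in 1 and 0. Il1b and Tnf were not called (log2FC 0.25, SE 0.98, and −0.57, SE 1.05), and at so few reads a moderate difference in them was not detectable.

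Interferon response and antigen presentation genes had 2 higher (Oas1a and Ifi44) and 1 lower (Psmb8) of 33 at an unadjusted p under 0.05, all 3 under 1 normalized CPM, with a median log2FC of 0.16. The leading members Rnf213 and H2-D1 had a log2FC of 0.25 (SE 0.23) and 0.15 (SE 0.45). Of 20 genes of JAK-STAT and gp130 cytokine signalling, Stat3, the transcription factor of that pathway, and Osmr, the oncostatin M receptor, were higher and Socs1 and Socs2, its inhibitors, lower, with a median of 0.102. Stat3 was at 37.7 in SAL-SAL and 54 normalized CPM in SAL-LPS (log2FC 0.53, SE 0.20, edgeR adjusted p = 0.216), and Socs2 at 35.2 and 22.9 (log2FC −0.61, SE 0.17, edgeR adjusted p = 0.108). The kinases Jak1 and Jak2 had a log2FC of −0.011 (SE 0.079) and 0.19 (SE 0.18). Of 24 cytokine and pattern recognition receptors, Tlr2 was higher and Ifngr2 and Cxcr4 were lower, with a median of 0.028. The receptor-family synaptic genes Il1rapl1 and Il1rapl2, the most abundant of that list, had 0.43 (SE 0.25) and −0.093 (SE 0.25). Prostaglandin genes had 0 higher and 2 lower of 15 (Ptges3 and Hpgd), with a median of −0.41. Ptges3, which is also the Hsp90 co-chaperone p23, was at 31.9 ± 13.2 in SAL-SAL and 22.3 ± 5.3 in SAL-LPS (log2FC −0.51, SE 0.15, edgeR adjusted p = 0.133). Ptgds, the prostaglandin D synthase of meninges and glia, ran the other way with wide spread, at 58.8 ± 99.9 and 105 ± 100 (log2FC 0.97, SE 0.61).

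Outside the immune genes, and among annotated genes with a mean of at least 1 normalized CPM, the positive difference with the smallest edgeR p was that of Fkbp5, a co-chaperone of the glucocorticoid receptor that the receptor itself induces and that dampens hormone binding. Fkbp5 lies on chromosome 17 at 28399094 to 28517527 of mm10, on the minus strand. In SAL-SAL it ran from 32.2 to 72.4 normalized CPM, with a median of 48.7, and in SAL-LPS from 60.1 to 193, with a median of 83.6. Every SAL-LPS library was above the SAL-SAL median and 11 of 15 were above every SAL-SAL library, but the groups overlapped between 60.1 and 72.4. The fitted level was 70.6% higher, a log2FC of 0.77 (SE 0.17), with an edgeR adjusted p of 0.0706 and a DESeq2 adjusted p of 0.0169. SAL-LPS 5-2 stood apart at 193, with the next library at 100.2. The log2FC was 0.81 without SAL-SAL 4-3 and 5-3 and 0.78 without the libraries low in medium spiny neuron genes, with DESeq2 adjusted p of 0.0212 and 0.0663.

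Few other glucocorticoid-induced genes differed. Of 32 glucocorticoid-induced genes tested, 2 were higher at an unadjusted p under 0.05 (Fkbp5 and Cdkn1a) and 1 was lower (Nedd9), with 17 fitted changes above 0, 15 below and a median log2FC of 0.13. Cdkn1a, the cell cycle inhibitor p21, was at 4.19 ± 2.24 normalized CPM in SAL-SAL and 10.6 ± 8.49 in SAL-LPS (log2FC 1.33, SE 0.48, edgeR adjusted p = 0.198). Sgk1, a kinase that glucocorticoids induce, was at 221 ± 98.3 and 254 ± 91.1 (log2FC 0.17, SE 0.21). Tsc22d3, which encodes the glucocorticoid-induced leucine zipper, was at 20.9 ± 20.9 and 12.5 ± 7.09 (log2FC −0.73, SE 0.41). Per1, a clock gene with glucocorticoid response elements, was at 111 ± 41.2 and 144 ± 40.6 (log2FC 0.39, SE 0.21), Klf9 at 96.4 ± 43.2 and 94.6 ± 30.5 (log2FC −0.0059, SE 0.21), and Phactr3, the most abundant of the list, at 432 ± 195 and 586 ± 237 (log2FC 0.43, SE 0.24). Sgk1, Tsc22d3, Per1, Klf9 and Phactr3 all missed an unadjusted p of 0.05. Of 10 genes of the glucocorticoid and mineralocorticoid receptor machinery, 0 were higher and 3 lower, the Hsp90 genes Hsp90aa1 and Hsp90ab1 and the co-chaperone Fkbp4, with a median of −0.069. Without SAL-SAL 4-3 and 5-3, 0 of the 10 were lower. The mineralocorticoid receptor Nr3c2 had a log2FC of −0.063 (SE 0.19) and the coactivator Ncoa2 one of 0.13 (SE 0.12).

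Of the genes with at least 1 normalized CPM that DESeq2 called higher, Ddb2, Nf2, Vstm5 and Greb1 are described next. Ddb2 encodes a DNA damage binding protein of nucleotide excision repair. It ran from 11.3 to 22.4 normalized CPM in SAL-SAL (median 15.8) and from 16.3 to 28.6 in SAL-LPS (median 24.7), where 15 of 15 libraries were above the SAL-SAL median and 9 above every SAL-SAL library (log2FC 0.57, SE 0.13, edgeR adjusted p = 0.0706, DESeq2 adjusted p = 0.0109). Nf2, the tumour suppressor merlin that links membrane and cytoskeleton, ran from 54 to 94.7 (median 66.7) and from 73.5 to 140 (median 90.8), again with 15 of 15 above the SAL-SAL median (log2FC 0.54, SE 0.13, edgeR adjusted p = 0.085, DESeq2 adjusted p = 0.0172). Vstm5, a membrane protein of dendritic spines and filopodia, ran from 24.2 to 59.7 (median 45.8) and from 37.7 to 78.9 (median 58.8), and 14 of 15 SAL-LPS libraries were above the SAL-SAL median (log2FC 0.56, SE 0.14, DESeq2 adjusted p = 0.0446). Greb1, an oestrogen receptor cofactor, had the widest spread, from 0.542 to 8.87 in SAL-SAL (median 6.82) and from 1.09 to 50.6 in SAL-LPS (median 10.1). For Greb1, 8 SAL-LPS libraries lay above every control and 6 lay below the control median (log2FC 1.81, SE 0.48, DESeq2 adjusted p = 0.0351). Its log2FC with the medium spiny neuron score as a covariate was 1.4, with a DESeq2 adjusted p of 0.0794. Without SAL-SAL 4-3 and 5-3 none of these 4 genes was called by DESeq2, with adjusted p of 0.087 for Ddb2, 0.087 for Nf2, 0.0995 for Vstm5 and 0.0996 for Greb1. Without the libraries low in medium spiny neuron genes none was either, at 0.0668, 0.0563, 0.228 and 0.511 in the same order. Ddb2 and Greb1 share exons with genes on the other strand, and whether the counting used strand was not given in the sources used here.

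Next in order by edgeR, and called by neither tool, were Slc9a5, Lonrf3, Ipo9 and Tmprss6. Slc9a5, a sodium-proton exchanger of neurons, was at 31.9 ± 7.52 in SAL-SAL and 52.5 ± 16.1 in SAL-LPS (log2FC 0.73, SE 0.19, edgeR adjusted p = 0.1, DESeq2 adjusted p = 0.051). It was called by DESeq2 once the libraries low in medium spiny neuron genes were left out (log2FC 0.81, DESeq2 adjusted p = 0.0251). Lonrf3 had a log2FC of 0.90 (SE 0.24), Ipo9, a nuclear import receptor, 0.56 (SE 0.15), and Tmprss6, a membrane serine protease, 0.84 (SE 0.22).

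On the lower side, the 2 annotated genes with the smallest edgeR p at a mean of at least 1 normalized CPM belonged to cholesterol synthesis. Srebf2, which encodes the factor that drives the pathway, on chromosome 15 at 82147181 to 82205379 of mm10, ran from 85.2 to 170.5 normalized CPM in SAL-SAL, with a median of 107, and from 39.2 to 107.4 in SAL-LPS, with a median of 83.1. Of the SAL-LPS libraries, 14 of 15 lay below the control median and 9 were below every SAL-SAL library. The log2FC was −0.55 (SE 0.12), with an edgeR adjusted p of 0.0706 and a DESeq2 adjusted p of 0.0169. Msmo1, which encodes the methyl sterol oxidase of the pathway, on chromosome 8 at 64718139 to 64733792, ran from 9.22 to 48.7 in SAL-SAL, with a median of 24.1, and from 5.95 to 23.8 in SAL-LPS, with a median of 11.9. Every one of the 15 SAL-LPS libraries lay under the control median, and 8 SAL-SAL libraries were above every SAL-LPS library. Its log2FC was −0.97 (SE 0.21), with an edgeR adjusted p of 0.0706 and a DESeq2 adjusted p of 0.0169. SAL-SAL 5-3 was the highest library for both genes, at 170.5 and 48.65.

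Without SAL-SAL 4-3 and 5-3 the log2FC of Srebf2 was −0.49 and that of Msmo1 −0.81, and neither was called by DESeq2 (adjusted p = 0.0996 and 0.156). Without the libraries low in medium spiny neuron genes they were −0.55 and −0.93 (DESeq2 adjusted p = 0.0663 and 0.0955). With the medium spiny neuron score as a covariate, both were called by edgeR, at −0.55 (SE 0.12) and −0.98 (SE 0.21), each with an edgeR adjusted p of 0.0467.

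A list of 32 sterol synthesis and uptake genes was drawn up after these 2 values had been seen, so its counts describe the pathway and are no independent evidence of its direction. Of the 31 tested, 1 was higher and 11 were lower at an unadjusted p under 0.05, 23 had a negative fitted change and the median log2FC was −0.29, against 0.00591 over all genes. Besides Srebf2 and Msmo1, the lower genes included the synthesis enzymes Hmgcs1, Idi1, Sqle, Cyp51 and Nsdhl and the regulator Insig1. Hmgcs1, an early enzyme of the pathway, ran from 10.9 to 48.4 normalized CPM in SAL-SAL (median 28.3) and from 8.48 to 27.2 in SAL-LPS (median 14.3), where 15 of 15 libraries were below the SAL-SAL median (log2FC −0.79, SE 0.22, edgeR adjusted p = 0.108, DESeq2 adjusted p = 0.128). Insig1, which retains the sterol sensor complex in the endoplasmic reticulum, ran from 3.32 to 27 (median 14.1) and from 4.15 to 19.5 (median 8.28), a wide overlap (log2FC −0.73, SE 0.25, edgeR adjusted p = 0.172).

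Other members of that list missed an unadjusted p of 0.05. Ebp, the sterol isomerase, and Tmem97 had a log2FC of −0.64 (SE 0.39) and −0.58 (SE 0.33), whereas Fdft1, Lss, Mvk, Scap, Sc5d, Dhcr7 and Acat2 lay between −0.21 and 0.19. Srebf1, the sister factor of fatty acid synthesis, stood at 14 ± 4.89 and 16.2 ± 5.04 normalized CPM (log2FC 0.16, SE 0.21). The one higher gene was Abca1, the transporter that exports cholesterol, at 34.8 ± 25.2 in SAL-SAL and 56.5 ± 24.3 in SAL-LPS (log2FC 0.68, SE 0.30, edgeR adjusted p = 0.333). The number of lower genes at an unadjusted p under 0.05 was 11 without SAL-SAL 4-3 and 5-3, 9 without the libraries low in medium spiny neuron genes and 12 with the score as a covariate, beside 4.14%, 4.09% and 7.37% of all genes. The mean log2(normalized CPM + 1) over the sterol genes differed within the groups as well, and in part with chaperone genes. SAL-LPS 5-0 and 9-3 had the highest sterol scores of their group (4.232 and 4.179, above the SAL-SAL mean of 4.068), its highest chaperone scores (5.899 and 5.937) and its highest mitochondrial shares (0.463% and 0.35%). The 4 controls lowest in the sterol score (3.715 to 3.872) had chaperone scores from 4.584 to 5.085, against 4.725 to 6.467 in the other 9, while SAL-SAL 9-4, highest in the sterol score (4.374), had a mitochondrial share of 0.0636%. SAL-SAL 9-4 was also the highest library for the summed oligodendrocyte, microglial and astrocyte genes (4975, 156.9 and 656.7 normalized CPM). The part of such differences between libraries in the sterol result was not tested. Of 23 metabolic switch and lipid genes, some of which are also sterol genes, 0 were higher and 4 lower (Fasn and Insig1 among them), or 17.4% beside 5.84% of all genes, with a median of −0.051. In that list Ppargc1a and the glucose transporter Slc2a3 had a log2FC of 0.075 (SE 0.16) and 0.064 (SE 0.13).

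Because these genes are classical targets of one factor family, the promoter windows of the 4 that best illustrate the pathway are shown, from 250 bases before to 50 bases after the RefSeq start (GRCm38.p6, strand of the gene). Capitals mark the motifs found on either strand: TCACCCC, a core of the sterol regulatory element that was chosen after the windows had been read, TGACG, a partial cAMP response element, TGACTCA, the AP-1 element, and AGAACA, a partial glucocorticoid response element, which a full one can contain. The windows are Srebf2 at chr15:82147019-82147318 (+), Hmgcs1 at chr13:119690101-119690400 (+), Msmo1 at chr8:64733529-64733828 (−) and Insig1 at chr5:28071162-28071461 (+).
Srebf2: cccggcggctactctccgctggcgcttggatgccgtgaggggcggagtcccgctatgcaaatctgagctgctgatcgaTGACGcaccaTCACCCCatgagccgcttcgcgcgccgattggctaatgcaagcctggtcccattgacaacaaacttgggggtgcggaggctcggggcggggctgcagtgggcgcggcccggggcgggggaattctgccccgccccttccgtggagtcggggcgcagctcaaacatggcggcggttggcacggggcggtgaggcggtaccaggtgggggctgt
Hmgcs1: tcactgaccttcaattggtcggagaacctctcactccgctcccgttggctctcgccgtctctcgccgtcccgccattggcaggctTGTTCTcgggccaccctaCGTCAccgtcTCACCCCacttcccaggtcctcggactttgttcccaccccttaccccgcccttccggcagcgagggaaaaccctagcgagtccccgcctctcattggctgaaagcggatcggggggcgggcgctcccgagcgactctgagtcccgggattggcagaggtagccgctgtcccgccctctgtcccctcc
Msmo1: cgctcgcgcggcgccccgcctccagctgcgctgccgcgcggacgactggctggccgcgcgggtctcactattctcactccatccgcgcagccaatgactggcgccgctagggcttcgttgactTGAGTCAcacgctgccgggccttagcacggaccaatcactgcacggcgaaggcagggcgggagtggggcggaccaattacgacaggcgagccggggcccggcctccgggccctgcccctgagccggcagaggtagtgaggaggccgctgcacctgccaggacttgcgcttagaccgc
Insig1: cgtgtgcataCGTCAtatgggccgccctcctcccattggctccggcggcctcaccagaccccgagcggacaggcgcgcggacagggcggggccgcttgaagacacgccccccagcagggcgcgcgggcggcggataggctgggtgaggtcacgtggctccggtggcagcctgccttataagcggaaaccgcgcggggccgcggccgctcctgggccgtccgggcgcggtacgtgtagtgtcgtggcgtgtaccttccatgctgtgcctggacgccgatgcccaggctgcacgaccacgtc
In Srebf2 the sterol core began at position −162 from the start and a partial cAMP element at −172, and in Hmgcs1 they began at −137 and −147. Hmgcs1 also held a partial glucocorticoid element at −165. Msmo1 held the AP-1 element at −127 and Insig1 a partial cAMP element at −240. Over the 24 listed sterol genes with a window, 2 held the sterol core (8.33%, against 4.97% of 32851 promoters), 9 the partial cAMP element (37.5%, against 20.8%), 6 the partial glucocorticoid element (25%, against 19%) and 1 the AP-1 element (4.17%, against 5.2%). Patterns for the full glucocorticoid element, NF-kB and the serum response element were searched by their consensus as well, on both strands, and were held by 0, 2 and 0 of the 24 windows (0.0913%, 4.51% and 1.63% of all promoters). The 2 windows with the sterol core were those of Srebf2 and Hmgcs1, which were read before that core was chosen. Its share is therefore not independent of the choice. A match is a description of the letters and not of a bound site.

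**Figure D3:**
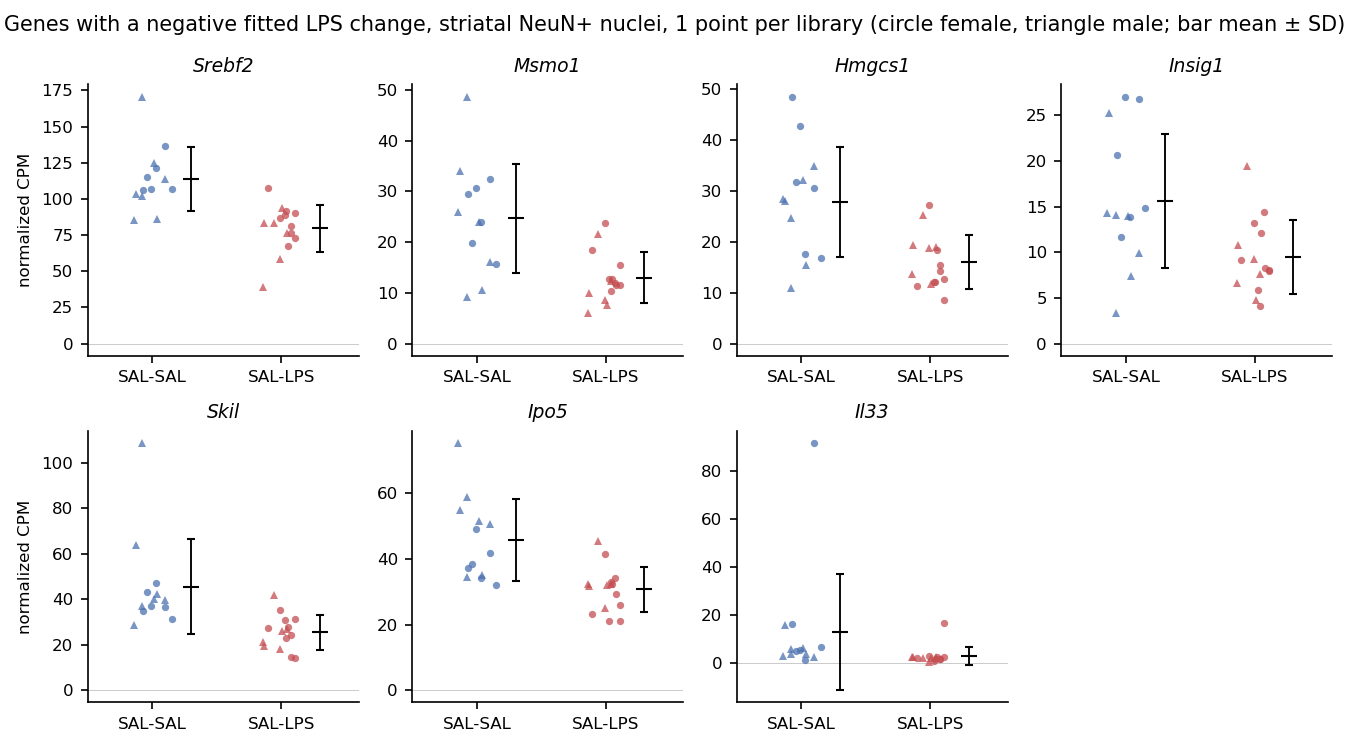
Normalized CPM of 7 genes with a negative log2FC, 1 point per library, with circles for females, triangles for males and the bar and whiskers giving the mean ± SD of each group. The sterol genes Srebf2, Msmo1, Hmgcs1 and Insig1 shifted downward as overlapping groups, and single SAL-SAL libraries stood far above the others for Skil (108.7) and Il33 (91.65).

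The other lower genes at or above 1 normalized CPM that DESeq2 called were Skil, Ipo5, Il33, Lyzl4 and 4 mitochondrially encoded genes. Skil, a repressor of TGF-beta signalling, ran from 28.6 to 108.7 in SAL-SAL (median 39.6) and from 14.2 to 41.9 in SAL-LPS (median 25.8), where 11 of 15 libraries were below every control (log2FC −0.79, SE 0.18, edgeR adjusted p = 0.0706, DESeq2 adjusted p = 0.0211). SAL-SAL 5-3 was its highest library, and without SAL-SAL 4-3 and 5-3 the log2FC was −0.65 (DESeq2 adjusted p = 0.156). Without the libraries low in medium spiny neuron genes it was −0.77 and the DESeq2 call was also lost (adjusted p = 0.0668). With the medium spiny neuron score as a covariate, Skil was called by both tools (log2FC −0.80, SE 0.14, edgeR adjusted p = 0.00276, DESeq2 adjusted p = 3.26e-05). Ipo5, a nuclear import receptor, ran from 32.1 to 75.3 (median 41.9) and from 21 to 45.6 (median 32.2), with 7 of 15 SAL-LPS libraries below every control (log2FC −0.53, SE 0.12, edgeR adjusted p = 0.0803, DESeq2 adjusted p = 0.0374). The DESeq2 call of Ipo5 was lost without SAL-SAL 4-3 and 5-3 and without the libraries low in medium spiny neuron genes (adjusted p = 0.151 and 0.544). Il33, an alarmin cytokine kept in the nuclei of glia, ran from 1.31 to 91.7 (median 5.38) and from 0.347 to 16.8 (median 2.31) (log2FC −2.08, SE 0.53, DESeq2 adjusted p = 0.0325). The DESeq2 call of Il33 was lost in the same way (adjusted p = 0.0995 and 0.0668). Its highest library, SAL-SAL 9-4, was also the highest for the oligodendrocyte gene Mog, and the part of glial transcripts in this difference was not tested. Lyzl4, a lysozyme-like gene, ran from 1.12 to 27.4 (median 5.55) and from 0.472 to 4.87 (median 2.39), with a log2FC of −1.62 (SE 0.43, DESeq2 adjusted p = 0.0351). Without the libraries low in medium spiny neuron genes it was −0.85 (DESeq2 adjusted p = 0.824). Sms, spermine synthase, was below every control in 11 of 15 SAL-LPS libraries (log2FC −0.47, SE 0.12, edgeR adjusted p = 0.103, DESeq2 adjusted p = 0.1). Atp12a, an ion pump and the one gene edgeR called lower, had 42 reads in 6 of 13 SAL-SAL libraries and 0 in the SAL-LPS libraries. It was at least 17.9-fold lower, from a floor of 3 counts over the group, but 26 of the 42 reads were in SAL-SAL 3-4, one of the libraries low in medium spiny neuron genes, and its edgeR adjusted p was 0.0669 without that library and 0.0848 without SAL-SAL 10-3.

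Mitochondrially encoded transcripts were highest in a pair of control libraries, and their median share of counts was 0.241% in SAL-SAL and 0.0874% in SAL-LPS. All 14 genes tested had a negative fitted change, 13 of them at an unadjusted p under 0.05, with a median log2FC of −2.62, and mt-Nd2, mt-Nd4, mt-Nd6 and mt-Rnr1 were called by DESeq2. This list, too, was added after values had been seen. mt-Nd2 ran from 2.88 to 267 normalized CPM in SAL-SAL and from 0.782 to 21.4 in SAL-LPS (log2FC −2.74, SE 0.65), with its highest values in SAL-SAL 4-3 and 5-3 (267 and 98.4). Without that pair, 0 of the 14 reached an unadjusted p under 0.05, the median was −0.70, and mt-Nd2 had a log2FC of −0.97 (unadjusted p = 0.0808).

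Chaperone genes behaved in part the same way. Of 20 heat shock and chaperone genes, 0 were higher and 11 lower at an unadjusted p under 0.05, 19 had a negative fitted change, and the median was −0.565, while none was called by either tool. Hsp90aa1, the inducible Hsp90, ran from 69.3 to 610.8 in SAL-SAL and from 19.7 to 256.7 in SAL-LPS (log2FC −1.02, SE 0.39, edgeR adjusted p = 0.235). Cryab, the small heat shock protein alpha B-crystallin, ran from 0.533 to 58.7 and from 0.261 to 8.15 (log2FC −2.09, SE 0.62, edgeR adjusted p = 0.132), and the co-chaperonin Hspe1 and its partner Hspd1, which share a promoter region and overlap, had −1.18 (SE 0.45) and −0.64 (SE 0.22). The constitutive Hspa8 and Hsp90ab1 had −0.73 (SE 0.40) and −0.91 (SE 0.38), and Hsf1, the heat shock transcription factor of the list, 0.13 (SE 0.11). SAL-SAL 4-3 was the highest library for Hsp90aa1 and SAL-SAL 5-3 the next, at 610.8 and 447.1. Without that pair 3 of the 20 were lower at an unadjusted p under 0.05, with a median of −0.38. Without the libraries low in medium spiny neuron genes 9 were, and with the score as a covariate 15 were.

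Oligodendrocyte genes were unevenly spread over the libraries. Of 18 tested, 5 were lower (Mog, Opalin, Ugt8a and Gjb1 among them) and 1 higher at an unadjusted p under 0.05 (Trf, with 3 reads in SAL-SAL and 29 in SAL-LPS), with a median of −0.77 and 0 called. That median was −0.546 without SAL-SAL 4-3 and 5-3, and ran from −1.1 to −0.36 with single libraries left out. The summed level of the 16 with at least 1 normalized CPM ran from 175.2 to 4975 normalized CPM in SAL-SAL (median 459) and from 218 to 1567 in SAL-LPS (median 430). The medians were thus close, and the highest library was a control, SAL-SAL 9-4. Mbp, a main myelin protein, was at 267 ± 357 normalized CPM in SAL-SAL and 194 ± 110 in SAL-LPS (log2FC −0.42, SE 0.37). Astrocyte genes had 0 higher and 0 lower of 15, with a median of −0.36, and a summed level from 305 to 657 in SAL-SAL and from 234 to 635 in SAL-LPS. Their leading genes Slc1a2 and Gli3 had −0.14 (SE 0.30) and −0.36 (SE 0.37). Endothelial and mural genes had 2 higher (Cldn5 and Pecam1) and 2 lower (Rgs5 and Kcnj8) of 17, with a median of 0.071, and Tek and Esam had 0.23 (SE 0.21) and 0.047 (SE 0.29). Choroid plexus and ependymal genes had 0 higher and 2 lower of 11 (Ccdc153 and Enpp2), with a median of −0.575. Enpp2, which is also made by oligodendrocytes, was at 106 ± 132 and 50.4 ± 31.7 (log2FC −1.09, SE 0.41), and Clic6 had 0.098 (SE 0.43). The part of these cell types in the differences of other genes was not tested.

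**Figure D4:**
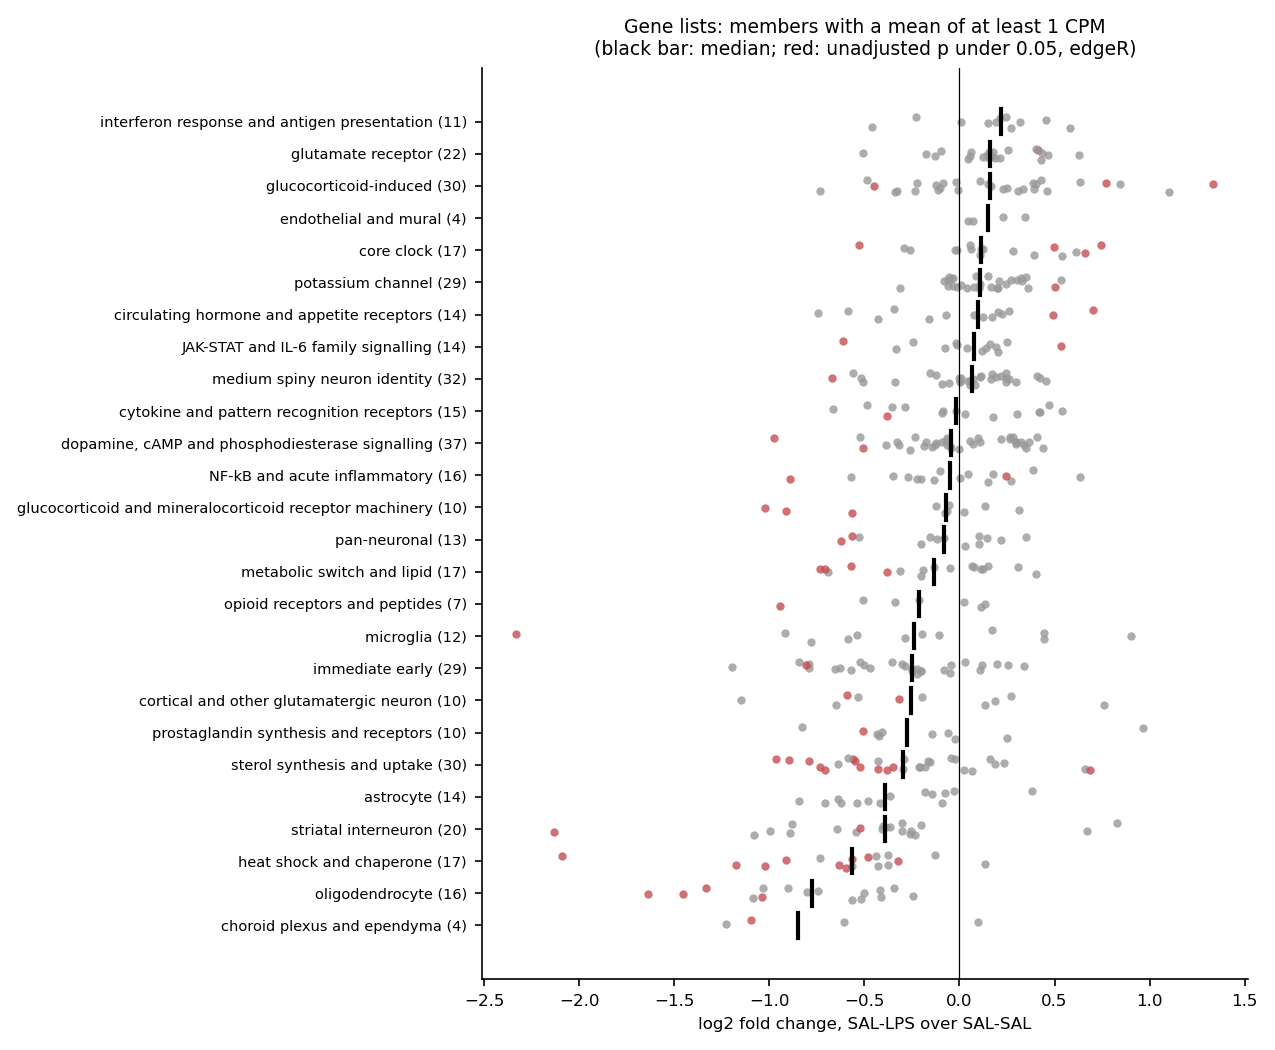
Rows are gene lists, with the number of members at or above 1 normalized CPM in brackets, and each point is the edgeR log2FC of a member, red where its unadjusted p was under 0.05 and with a black bar at the median. The sterol, heat shock and oligodendrocyte lists lie mostly left of 0, with medians of −0.295, −0.563 and −0.773 over the members plotted, and the medium spiny neuron list is centred near 0.

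Few neuronal identity and signalling genes reached an unadjusted p under 0.05. Of 32 medium spiny neuron identity genes, 0 were higher and 1 (Lypd1) lower at an unadjusted p under 0.05, with a median of 0.065. Pde10a, the phosphodiesterase that marks these neurons, was at 2611 ± 1680 in SAL-SAL and 3493 ± 2230 in SAL-LPS (log2FC 0.41, SE 0.33), and Adcy5, their adenylyl cyclase, at 1116 ± 789 and 1307 ± 905 (log2FC 0.22, SE 0.36). Without the libraries chosen for low values of this list, its median was 0.078. Of 39 dopamine, cAMP and phosphodiesterase genes 2 were lower, Gnai1, an inhibitory G protein subunit, at 91.2 and 64.9 normalized CPM (log2FC −0.50, SE 0.16, edgeR adjusted p = 0.153), and Rgs4, a regulator of G protein signalling, with a median of −0.044. Of 8 opioid receptor and peptide genes, 1 (Pnoc) was lower, with a median of −0.28. Without SAL-SAL 4-3 and 5-3, 0 were lower and the median was 0.0343. Penk, the enkephalin precursor of the indirect pathway, ranged from 6.92 to 2929 in SAL-SAL and from 2.78 to 1750 in SAL-LPS (log2FC −0.34, SE 0.63), and the mu opioid receptor Oprm1 had 0.12 (SE 0.21).

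Striatal interneuron genes had 0 higher and 2 lower of 21 (Vip and Gad1), but 19 of the 21 had a negative fitted change, with a median of −0.40. Without SAL-SAL 4-3 and 5-3, 1 was lower and the median was −0.244, and with single libraries left out the median ran from −0.644 to −0.298. The mean log2(normalized CPM + 1) of the list was 3.69 ± 0.53 in SAL-SAL and 3.24 ± 0.68 in SAL-LPS. SAL-LPS 5-0 and 9-3, the highest of their group in chaperone genes, were also its highest here (4.606 and 4.24). Gad1, the GABA synthetic enzyme, was at 257 ± 120 and 174 ± 74.7 (log2FC −0.52, SE 0.23, edgeR adjusted p = 0.351), and Gad2 at 259 ± 118 and 216 ± 101 (log2FC −0.23, SE 0.24). Glutamate receptor genes had 1 higher of 22, Grin1, the obligate NMDA receptor subunit, at 275 and 357 (log2FC 0.41, SE 0.14, edgeR adjusted p = 0.175), with a median of 0.16. Grm7 and Grin2b had 0.43 (SE 0.24) and 0.25 (SE 0.21). Potassium channel genes had 1 higher of 29 (Kcnn3), with a median of 0.11, and Kcnip4 and Kcnd2 had 0.36 (SE 0.36) and 0.15 (SE 0.27). Hormone and appetite receptors had 2 higher of 16 (Lepr, the leptin receptor, and Igf1r), with a median of 0.028, Igf1r at 0.49 (SE 0.22) and the thyroid hormone receptor Thrb at 0.17 (SE 0.26). Core clock genes had 3 higher (Arntl, Npas2 and Cry1) and 1 lower (Bhlhe40) of 17, with a median of 0.11. Npas2, a partner of Arntl in the forebrain clock, was at 289 ± 151 and 488 ± 251 (log2FC 0.74, SE 0.27, edgeR adjusted p = 0.207), and Rora at 2300 ± 1454 and 3537 ± 1606 (log2FC 0.61, SE 0.33).

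Immediate early genes, which neuronal activity induces, had 0 higher and 1 lower of 31 (Gadd45g), with a median of −0.25. The median was 0.256 in females alone and −0.824 in males alone, a difference that was not tested for the list. Egr1 ran from 26.5 to 411 in SAL-SAL and from 10.5 to 187 in SAL-LPS (log2FC −0.66, SE 0.45), and Homer1 from 163 to 521 and from 65.6 to 388 (log2FC −0.20, SE 0.24). In both, the groups overlapped over most of their ranges. With the medium spiny neuron score as a covariate, 8 of the 31 were lower at an unadjusted p under 0.05, against 7.37% of all genes. Markers of cortical and other glutamatergic neurons had 2 lower of 11 (Satb1 and Mef2c), with a median of −0.32. It was 0.096, with 0 lower, once the libraries low in medium spiny neuron genes were left out. Camk2a and Tcf7l2 had 0.19 (SE 0.15) and 0.76 (SE 0.64). Pan-neuronal genes had 2 lower of 13 (Stmn2 and Eno2), with a median of −0.081, and the abundant noncoding RNAs Meg3 and Snhg11 had 0.22 (SE 0.23) and 0.10 (SE 0.14).

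The response was then set side by side for the sexes. A test of the difference between the male and the female response called 0 of 21858 genes in edgeR (0%), with 1221 at an unadjusted p under 0.05 (5.59%). Fkbp5 had a log2FC of 0.54 (SE 0.18) in females and 1.03 (SE 0.23) in males, and the difference had an unadjusted p of 0.111. Hmgcs1 had −1.09 (SE 0.26) in females and −0.46 (SE 0.29) in males, and Srebf2 −0.45 (SE 0.12) and −0.63 (SE 0.23). C4b had 2.08 (SE 0.58) in females and 2.55 (SE 0.46) in males. Each sex alone gave 0 calls in edgeR, with 1340 genes at an unadjusted p under 0.05 in females and 1195 in males.

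The same fit also gave the LPS response of mice exposed to morphine, MOR-LPS against MOR-SAL, for which 325 genes were called (1.39%). For these mice the dams' minipumps delivered morphine, and the pups were injected with morphine in place of saline. There were 18 MOR-LPS and 8 MOR-SAL libraries, of both sexes. Some of them were low in medium spiny neuron genes and were kept in this fit. The 2 responses were compared through their interaction, which called 2 of 23426 genes (0.00854%), with 3470 at an unadjusted p under 0.05 (14.8%). After filterByExpr, 268 of 15814 genes were called in the response with morphine (1.69%) and 0 in the interaction (0%, with 2071 at an unadjusted p under 0.05), and neither of the 2 genes was left to test. The acute phase and scavenger genes were higher after LPS with morphine as well: Lcn2 had a log2FC of 5.93 (SE 1.14, edgeR adjusted p = 0.00576), Saa3 4.71 (SE 1.27, edgeR adjusted p = 0.0465) and Msr1 7.6 (SE 1.33, edgeR adjusted p = 0.00262). C4b had 5.09 (SE 0.74) after morphine and 2.26 without, a difference of 2.84 (SE 0.81) with an edgeR adjusted p of 0.0773. Fkbp5 had 0.84 (SE 0.20) and 0.77, a difference of 0.065 (SE 0.26). Among the sterol genes, Msmo1 had −0.051 (SE 0.23) after morphine against −0.97 without (difference 0.92, SE 0.32, edgeR adjusted p = 0.152), Srebf2 −0.28 (SE 0.13) against −0.55 (difference 0.27, SE 0.18), and Insig1 0.71 (SE 0.29) against −0.73 (difference 1.45, SE 0.38, edgeR adjusted p = 0.0627). None of these differences passed in edgeR. DESeq2, which called 125 genes in the interaction, called those of C4b and Insig1 (adjusted p = 0.0361 and 0.0359) and not those of Fkbp5, Msmo1 and Srebf2. In the response with morphine, the astrocyte, microglial and oligodendrocyte lists had a median log2FC of 1.58, 1.4 and 1.21, beside 0.108 over all genes. Without morphine these lists had −0.364, −0.445 and −0.773. The part of glial transcripts in the differences between the 2 responses was not tested.

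The hippocampus and prefrontal cortex (PFC) of saline-exposed mice were used to ask whether the striatal response differed from that of other forebrain neurons. The hippocampus gave 14 SAL-LPS and 13 SAL-SAL libraries, and 23 of these animals also gave striatum. The PFC gave 9 and 10 libraries, and 16 of these animals also gave striatum. In joint fits, 573 of 19795 genes were called in the hippocampus (2.89%) and 164 of 18923 in the PFC (0.867%), and 1 gene was called in the striatum in each fit (0.00505% and 0.00528%). After filterByExpr the calls were 135 of 15020 (0.899%) in the hippocampus and 82 of 15204 (0.539%) in the PFC, with 0 in the striatum in both fits. The difference between striatum and hippocampus was called for 2 genes (0.0101%) and that between striatum and PFC for 5 (0.0264%). After filterByExpr these counts were 0 (0%) and 4 (0.0263%). The edgeR fits took libraries of the same animal as separate, and limma-voom with a correlation within animals called 0 and 4. A gene called in one region and not in another is therefore not shown to differ between them, unless it is one of these 7. Of the 7, only the 4 that also passed after filterByExpr did not depend on that filter. The fitted changes of Msmo1 and Srebf2 were below 0 in all 3 regions: Msmo1 had −0.87 (SE 0.25, edgeR adjusted p = 0.0407) in the hippocampus and −1.41 (SE 0.34, edgeR adjusted p = 0.0312) in the PFC, and Srebf2 −0.41 (SE 0.13, edgeR adjusted p = 0.0602) and −0.73 (SE 0.17, edgeR adjusted p = 0.0298). The median of the sterol list was −0.21 in the hippocampus and −0.39 in the PFC. C4b had 2.32 (SE 0.55, edgeR adjusted p = 0.0198) in the hippocampus and 2.02 (SE 0.91) in the PFC. Slc9a5 had 1.14 (SE 0.21, edgeR adjusted p = 0.0083) in the hippocampus, where it was called, and Skil −1.33 (SE 0.32, edgeR adjusted p = 0.0326) in the PFC. After filterByExpr the hippocampal value of Msmo1 no longer passed (edgeR adjusted p = 0.0692), whereas C4b and Slc9a5 in the hippocampus and Msmo1, Srebf2 and Skil in the PFC did.

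Other genes had unlike values in the regions without a difference that passed. Fkbp5 had 0.52 (SE 0.19) in the hippocampus and 0.22 (SE 0.24) in the PFC, against 0.77 in the striatum, and the difference from the PFC in the joint fit was 0.58 (SE 0.31, edgeR adjusted p = 0.594). Nf2 was −0.17 (SE 0.13) in the hippocampus, a difference of 0.72 (SE 0.18) with an edgeR adjusted p of 0.102, and 0.72 (SE 0.20) in the PFC. Ipo5 was −0.12 (SE 0.12) in the hippocampus and 0.028 (SE 0.21) in the PFC. The chaperone list had a median of −0.31 in the hippocampus and 0.0042 in the PFC, and the oligodendrocyte list −0.39 and −1.52. Lcn2 had a mean of 0.386 normalized CPM in hippocampal SAL-SAL libraries and 1.2 in SAL-LPS, and of 0 and 1.74 in the PFC, where its log2FC was called (edgeR adjusted p = 0.0071), although filterByExpr left it untested in the joint fits.

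**Figure D5:**
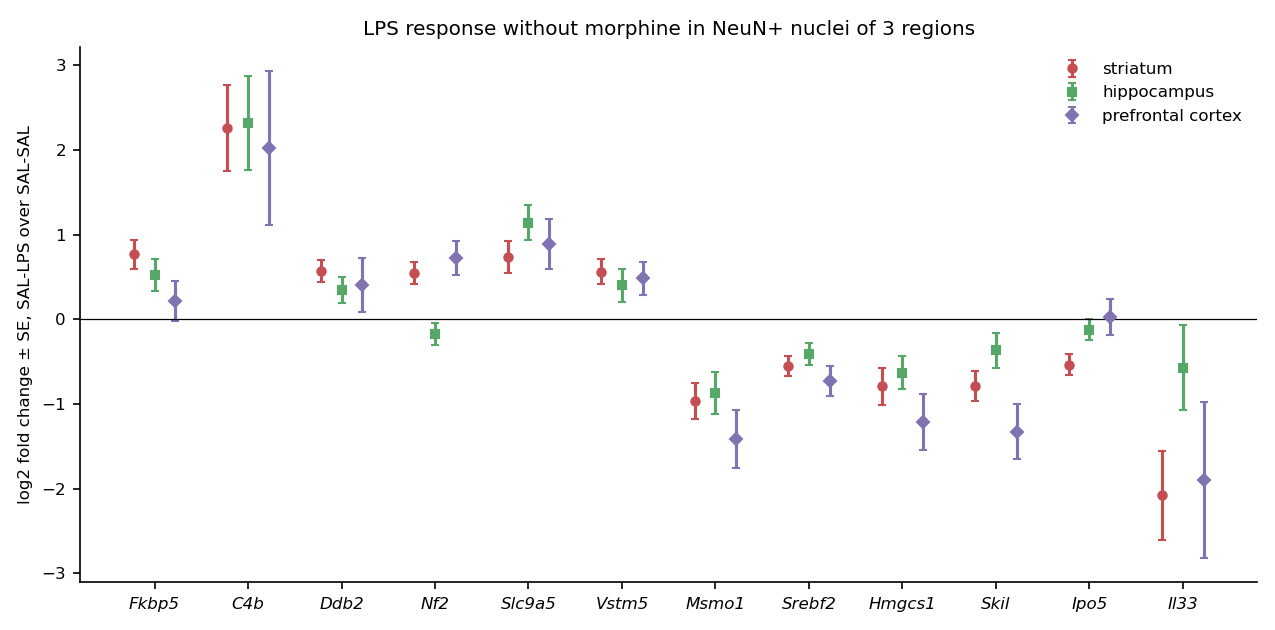
Log2FC ± SE, SAL-LPS over SAL-SAL, of 12 genes in NeuN+ nuclei of the striatum, hippocampus and PFC. Striatal values come from the striatal fit and the others from joint fits with the striatum, and Nf2 is the gene whose hippocampal value (−0.17) lies on the other side of 0 from its striatal value (0.54).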

How the data were processed

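RNA-seq of NeuN+ nuclei was analysed from the processed tables. The authors trimmed, aligned and counted the reads and deposited raw counts per gene, and the submitters' processing notes name Trim Galore 0.6.7, STAR 2.7.10a, HTSeq 0.12.4, DESeq2 1.40.2 and mm10. Whether strand was used in counting is not given in the sources used here. The authors also deposited CPM values, scaled after mitochondrial genes were left out, which served only as an alternative. The hypothalamic tables and the histone mark data were not analysed here.

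Of 46403 genes in the striatal table, 23426 with a total count over 10 in the 54 libraries were tested with edgeR 4.0.16 (R 4.3.3; TMM, quasi-likelihood fit, 4 conditions and sex, Benjamini-Hochberg adjustment, called at an adjusted p under 0.05). This gene filter follows the study. Checked on simulated counts with known changes, the test recovered most of them, but at this filter it made more false calls than the threshold allows, nearly all in genes below 1 CPM. With filterByExpr, which was planned as an alternative, false calls stayed close to the threshold. The planned test was kept, and filterByExpr results are printed beside it. For the interaction and regional tests, filterByExpr was added after seeing the data.

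The members and gene lists were chosen with earlier results of these data known. There were 25 lists, and 2 more (sterol and mitochondrially encoded genes) were drawn up after values had been seen. Since fewer than 5 genes were called in each direction, the 10 genes of each direction with the smallest unadjusted p at a mean of at least 1 normalized CPM were named, leaving out predicted gene models, with the called or 2 highest members of each list. Genes called by DESeq2 and the lists described in full were added. Alternatives used DESeq2 1.42.0, limma 3.58.1 (pseudocounts 1 and 0.1 on log2 CPM), other scalings, filters, terms and libraries left out. Dropping libraries under 0.5 of the median total removed 2 hippocampal, 3 prefrontal and 0 striatal libraries. Intervals of pooled ratios are exact (95%) and cover counting error only. Gene positions are those of mm10, and promoters those of RefSeq GRCm38.p6. Some genes that met these rules are not reported here.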

Additional observations from a re-analysis of the deposited data

Results flagged for a closer look

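In edgeR, a test of the difference itself passed for 9 genes, 8 of them sparse in at least one group, and 4 of the 9 still passed after filterByExpr. DESeq2, run for the morphine interaction only, called 125 genes there, C4b and Insig1 among them. Values are normalized CPM means. Between mice with and without morphine (edgeR interaction, morphine minus saline), Adh1 differed by −7.5 (SE 1.4, edgeR adjusted p = 0.0463), with means of 0 in SAL-SAL, 0.1006 in SAL-LPS, 0.2613 in MOR-SAL and 0.00597 in MOR-LPS. Gm14271 differed by −8.49 (SE 1.47, edgeR adjusted p = 0.0463), with means of 0, 0.1194, 0.3561 and 0 in the same order. DESeq2 gave neither gene an adjusted p, and filterByExpr left neither to test.

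Between striatum and hippocampus, Gm5746 differed by −7.84 (SE 1.47, edgeR adjusted p = 0.0319), going from 0.406 in SAL-SAL to 0.0209 in SAL-LPS in the striatum and from 0.0204 to 0.635 in the hippocampus. Irx3os differed by 6.34 (SE 1.23, edgeR adjusted p = 0.0319), going from 0.00973 to 0.0918 in the striatum and from 0.198 to 0.00517 in the hippocampus. Neither was left to test by filterByExpr, and limma-voom with a correlation within animals called 0 genes.

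Between striatum and prefrontal cortex (PFC), Srsf6, a splicing factor, was the one well expressed gene. It differed by −1.57 (SE 0.318, edgeR adjusted p = 0.0412), from 30.7 to 30.4 in the striatum and from 17 to 47.5 in the PFC, and still passed after filterByExpr (edgeR adjusted p = 0.0382). C1qtnf9 differed by 8.21 (SE 1.65, edgeR adjusted p = 0.0412), from 0.298 to 0.485 in the striatum and from 1.34 to 0 in the PFC, and was not left to test. Itgae, an integrin subunit, differed by 7.1 (SE 1.42, edgeR adjusted p = 0.0412), from 1.25 to 1.6 in the striatum and from 1.14 to 0 in the PFC. Gm21984 differed by 6.32 (SE 1.11, edgeR adjusted p = 0.0123), from 1.16 to 1.27 and from 3.6 to 0.0438. Gm26621 differed by 6.17 (SE 1.24, edgeR adjusted p = 0.0412), from 0.45 to 1.12 and from 3.77 to 0.187. These last 3 passed after filterByExpr (edgeR adjusted p = 0.0382, 0.00778 and 0.0382). Fitted differences against a group at 0 depend on the prior count of the fit.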

How the results depend on the processing

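Against the 3 genes called, edgeR called 3 with RLE scaling, library size alone, no gene filter, no sex term or a robust fit, 2 with filterByExpr, 6 in a fit of only the 2 groups, and 0 at a mean CPM of at least 1, with limma on log2 CPM at either pseudocount, and in females or males alone. DESeq2 called 26. With alternatives chosen after seeing the data, the count was 2 without SAL-SAL 4-3 and 5-3 (6 in DESeq2, 1 after filterByExpr), 0 without the libraries low in medium spiny neuron genes (10 in DESeq2) and 8 with the medium spiny neuron score as a covariate (109 in DESeq2). It ran from 0 to 3 when all libraries with 1 first number in their replicate name were left out, with 0 without number 1, 3, 5, 9 or 10, and from 1 to 5 when single libraries were left out, with 1 without SAL-SAL 10-3 or 3-4 and 5 without SAL-LPS 5-0 or 9-3. The morphine interaction gave 125 calls in DESeq2 and 0 after filterByExpr, against 2. The striatum minus hippocampus difference gave 0 with limma-voom and 0 after filterByExpr, against 2. The cause of these shifts was not tested, and the excess of false calls below 1 CPM on simulated counts was not linked to any single shift. Depth limits calls among genes with a handful of reads.

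The first number of the replicate names is shared by both groups. No label says that it marks a litter, so a fit that pairs libraries by it rests on an assumption. With this number as a replicate block 0 genes were called, while 1924 reached an unadjusted p under 0.05, and 0 were with limma-voom and a correlation within numbers of 0.0288 (1846). Residuals of same-number libraries had a mean correlation of 0.055 (24 pairs over 7 numbers, means per number from −0.17 to 0.34), against −0.0065 for 171 other pairs.

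List medians that moved by more than the spread between libraries were these. Immediate early genes had 0.256 in females and −0.824 in males. NF-kB genes had 0.124 after filterByExpr, 0.116 with the replicate block, 0.175 in females and 0.0886 after filterByExpr without SAL-SAL 4-3 and 5-3. JAK-STAT genes had −0.0204 with library size alone, −0.0145 in females, −0.0129 without the libraries low in medium spiny neuron genes (−0.0033 in DESeq2), and ran from −0.00665 to 0.128 over numbers and from 0.0302 to 0.172 over libraries left out. Interferon genes had 0.378 in males and glutamatergic genes 0.337 in females. Mitochondrially encoded genes without SAL-SAL 4-3 and 5-3 had −0.698 (−0.675 after filterByExpr, −0.598 in DESeq2). Shifts smaller than that spread also turned the sign of some medians, among them the following. With library size alone, which moved the median of all genes from 0.00591 to −0.0805, medium spiny neuron genes had −0.0118, cytokine receptors −0.0509 and hormone receptors −0.0959, and with the replicate block medium spiny neuron genes had −0.0405. Without SAL-SAL 4-3 and 5-3, dopamine and cAMP genes had 0.0683, metabolic genes 0.0546, hormone receptors −0.0175, opioid genes 0.0343 and NF-kB genes 0.0317. With limma at a pseudocount of 1, core clock genes had −0.0219. Cytokine receptors had −0.0428 and glutamatergic genes 0.0963 without the libraries low in medium spiny neuron genes, and hormone receptors −0.0011 with the score as a covariate. The prostaglandin median went from −0.408 to −0.0951 with the block.

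Of the single genes, 83 alternative values changed sign, and 4403 kept their sign and side of the threshold. In females, Cx3cl1 had 0.061, Egr1 0.30, Homer1 0.051, Nr3c2 0.11, Penk 0.16 and Esam −0.071. In males, Adcy5 had −0.061, Camk2a −0.17, Clic6 −0.15, Il1rapl2 0.091, Jak2 −0.13, Mbp 0.16, Ppargc1a −0.013, Slc2a3 −0.040 and Thrb −0.31. With the replicate block, Clic6 had −0.19, Esam −0.14, Jak1 0.0026, Nr3c2 0.025 and Slc1a2 0.051, and with limma-voom Esam had −0.028. With library size alone, Esam had −0.024, Ppargc1a −0.011 and Slc2a3 −0.031. With limma at pseudocounts of 1 and 0.1, Esam had −0.054 and −0.071, Ppargc1a −0.015 and −0.015, Slc2a3 −0.034 and −0.035, and Snhg11 −0.0034 and −0.0034. Jak1 had 0.0017 in DESeq2, 0.019 after filterByExpr, 0.013 with no filter and 0.0042 in the 2 groups alone. Without SAL-SAL 4-3 and 5-3, Jak1 had 0.018 (0.044 after filterByExpr, 0.040 in DESeq2) and Penk 0.12 (0.15 and 0.16). Without the libraries low in medium spiny neuron genes, Nr3c2 had 0.047 (0.056 in DESeq2). With the score as a covariate, Tcf7l2 had −0.038 (−0.033 in DESeq2) and Jak1 0.0024 in DESeq2. Leaving out single numbers and then single libraries gave Clic6 −0.067 to 0.35 and −0.070 to 0.21, Esam −0.070 to 0.11 and −0.041 to 0.14, H2-D1 −0.15 to 0.43 and −0.19 to 0.48, Il1rapl2 −0.17 to −0.035 and −0.17 to 0.013, Jak1 −0.051 to 0.014 and −0.033 to 0.018, Mbp −0.67 to 0.10 and −0.56 to 0.088, Nr3c2 −0.12 to 0.027 and −0.13 to 0.0044, Oprm1 −0.047 to 0.42 and 0.056 to 0.27, Penk −0.77 to −0.12 and −0.73 to 0.061, and Slc1a2 −0.25 to 0.039 and −0.25 to 0.035. The cause was not tested.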
